A study of Homo sapiens with 3 samples.

Results

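The genes described here are the ZNF zinc finger genes whose RNA was above background in L428tetPU.1 cells, a derivative of the L428 line of classical Hodgkin lymphoma that carries a PU.1 gene held off by tetracycline. A gene was taken if its symbol is ZNF, a number and at most 1 letter, and if a probe for it had a detection p-value under 0.01 on at least 1 array. The brightest such probe by mean intensity stood for the gene. Of 487 ZNF genes with a probe, 234 met the rule, with 242 of 553 ZNF probes, or 48.0% of the family, beside 49.1% of all 19312 named genes. Detection and brightness therefore chose the members, and they are not findings. Just inside the threshold lay ZNF554, whose lowest detection p-value was 0.00946, and just outside it lay ZNF777 and ZNF319 at 0.0102.

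The series holds 3 bead arrays of total RNA, 1 at day 0, 1 at day 1 and 1 at day 3 after tetracycline was withdrawn from medium that held 500 ng/ml of it. All groups carry the same introduced gene, and the day 0 cells, still under tetracycline, are the control. The study asked which transcripts follow the return of PU.1, the product of SPI1 and a regulator of the myeloid and B lineages. The design text names 4 independent experiments, but each day has 1 column of values. The values that follow therefore carry no replicate error, and no test between days could be made.

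Most ZNF genes encode proteins with tandem C2H2 fingers, small folds around a zinc ion that each read a few bases of DNA. Many of these proteins carry a KRAB domain, which recruits TRIM28 (KAP1) and with it the histone methyltransferase SETDB1, so that chromatin at the bound site is silenced. Retroelements are a main target, and many KRAB zinc finger genes sit in clusters on chromosome 19. Other ZNF proteins act at promoters, in chromatin complexes, or on RNA and ribosomes.

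Between 22.3% and 23.2% of the 48701 probes were above background on an array. Day 1 stood somewhat apart from day 0, with a correlation of log2 signals of 0.917 across 10038 probes above background on all arrays, beside 0.954 for day 3 with day 0. Genes are not independent replicates, and these values describe the arrays. The probe for SPI1 was above background on no array, at intensities of 40.8, 35.3 and 38.9 on days 0, 1 and 3, so these arrays hold no measured rise of the induced gene. Of 7 markers of the tumour cells of Hodgkin lymphoma 6 were above background, among them TNFRSF8 (CD30), CCL17 and FSCN1. The platform had named probes for 4 of 5 B cell markers, 3 T cell markers and 3 myeloid markers, and 0 of these were above background.

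In what follows a level is a normalized log2 signal and a change is the difference of 2 such levels. Since no test was possible, "rose" and "fell" are used by a size rule: at least 2-fold, or 1 log2. Where a probe was above background on only 1 of the 2 arrays, the fold against the lowest signal above background on the other array (or against the undetected signal itself if that was brighter) had to reach 2-fold as well, and is written "at least N-fold". Genes for which exactly 2 probes were detected throughout gave a probe error of a change of 0.36 log2 at day 1 and 0.29 at day 3, both against day 0 (SD, 420 genes). It leaves out the spread between cultures. In bulk RNA, fewer cells that express a gene and less RNA per cell cannot be told apart.

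Few ZNF genes passed this rule, and their shares lay below those of all genes. At day 1, 11 of 226 measured members rose and 8 fell, or 4.87% and 3.54%. The background over all 9302 genes measured was 9.20% higher and 7.99% lower. At day 3 against day 0, 6 of 223 members rose and 2 fell, or 2.69% and 0.897%, beside a background of 4.95% and 2.16%. The background of falls at day 3 moved with the processing, from 198 genes to 98 without background correction, 97 with an offset of 50, 365 under scaling to the 75th percentile and 260 in the authors' values. The members' share was below the background in both directions on both days. The difference was not tested, since members are not replicates of a condition.

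The median change of the members was -0.01 at day 1 and -0.02 at day 3, beside -0.05 and -0.06 for all genes measured. Among the 195 members above background on both arrays at day 1, the middle 50% of changes ran from -0.35 to 0.34, a range of 0.69 log2, beside 0.88 log2 for all genes. Of these members 66.7% changed by less than 0.5 log2, as did 54.2% of all genes. At day 3 the shares were 78.2% and 69.3%. The members were dimmer than genes at large, with a median level of 7.01 beside 8.06, and a dim probe's change is drawn toward 0 by the offset of the correction. The 189 members above background on all arrays were therefore put into 3 groups of 63 by mean level and set beside all genes of the same range of levels. At day 1 the share past 2-fold was 1.59% in the dim group, 11.1% in the middle one and 12.7% in the bright one. All genes of those ranges had 10.9%, 21.1% and 17.2%. In each of the 3 ranges a smaller share of members than of genes at large passed 2-fold at day 1. The same held at day 3, with 1.59%, 4.76% and 4.76% beside 4.95%, 8.72% and 6.10%, shares that rest on few members. In the bright range the rises were near the background. They were 6 of 63 members beside 405 of 4196 genes at day 1, and 3 beside 203 at day 3. The falls in that range were 2 beside 318 at day 1 and 0 beside 53 at day 3.

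**Figure D1:**
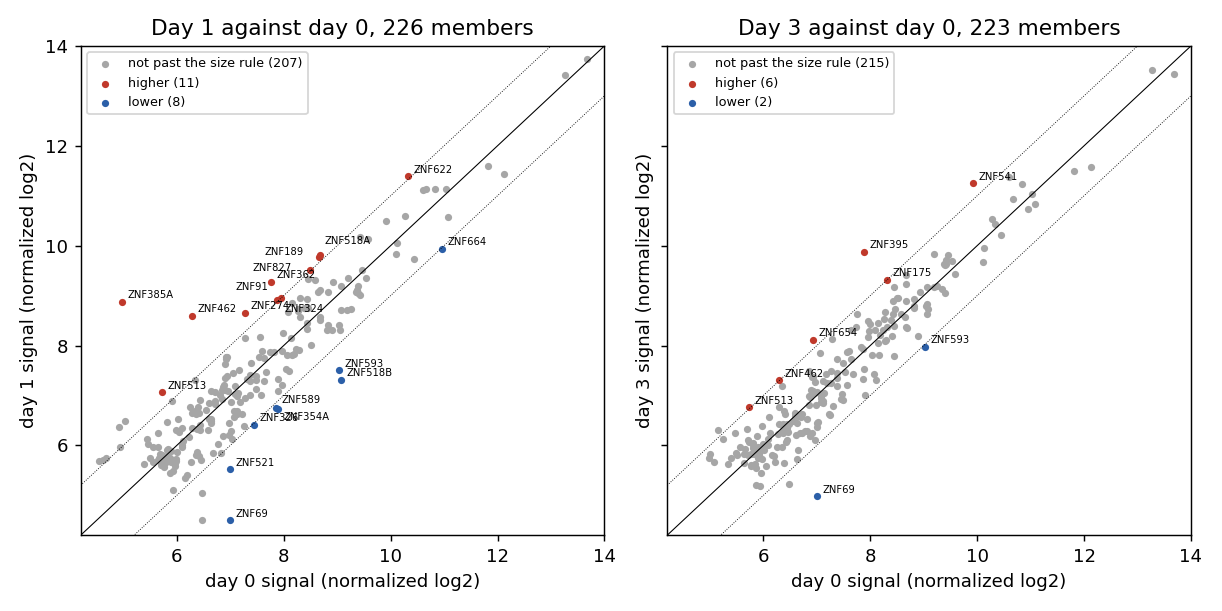
Level of each member at day 0 (horizontal) against day 1 (left, 226 members) and day 3 (right, 223 members), all as normalized log2 signals from 1 array per day. The solid line is equality and the dotted lines mark 2-fold. 11 members rose and 8 fell at day 1, 6 rose and 2 fell at day 3, and most of the others lie between the dotted lines. Grey points beyond them were above background on only 1 of the 2 arrays and fell short by the bound.

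Detection, which also chose the members, varied little by day, with 206 members above background at first, 215 on day 1 and 214 on day 3. Of all 9491 genes 8597, 8897 and 8895 were above background on these days, also fewest at day 0. All 3 arrays detected 189 of the members, 23 were detected on 2 arrays and 22 on 1 array. Of the last, 3 were seen at day 0 alone, 11 at day 1 alone and 8 at day 3 alone. Among the 189, the lowest level was at day 0 for 65 members, at day 1 for 71 and at day 3 for 53. The corresponding shares, 34.4%, 37.6% and 28.0%, lay near those of all 8085 genes detected throughout, which were 31.0%, 40.3% and 28.7%.

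ZNF385A gave the widest rise of the family. The protein, also called HZF, is a target of p53 that steers p53 toward genes of cell cycle arrest. Its deposited intensities were 48.1, 455.1 and 72.4 on days 0, 1 and 3, and its levels 4.98, 8.87 and 5.75. The gene was not above background at day 0, rose at least 8.83-fold at day 1, and fell by 3.11 log2 from day 1 to day 3. That bound belongs to the processing used here. The raw difference of ZNF385A at day 1 was 3.88 log2, but 2.97 without background correction and 2.93 with an offset of 50. At day 3 its signal was at least 1.02-fold that of day 0, which is short of the rule. CDKN1A, the cell cycle inhibitor to which HZF directs p53, had levels of 7.63, 12.70 and 12.27. At day 3 it was still high, while ZNF385A was low again. CDKN1A was named after its values were seen. A link of its change to ZNF385A or to p53 was not tested.

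ZNF462, a large zinc finger protein that is altered in a human developmental syndrome, had levels of 6.29, 8.59 and 7.30. It rose by 2.30 log2 at day 1, and fell by 1.29 from day 1 to day 3. Against day 0 its day 3 change of 1.01 passed the rule narrowly and not under any of 4 alternatives of background correction and scaling. ZNF362, a close relative of the promoter factor ZNF384, stood at 7.76, 9.28 and 8.64. Its rise at day 1 was 1.52, while ZNF384 itself changed by 0.88, under the rule. ZNF274 recruits SETDB1 to the ends of other zinc finger genes, and its levels were 7.28, 8.65 and 8.14. It rose by 1.37 at day 1 and its change at day 3 was 0.86. These 3 rises and that of ZNF385A kept their call under each of the 4 alternatives.

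The other 7 rises of day 1 were closer to the threshold. ZNF513, which has been linked to retinal degeneration, had levels of 5.73, 7.06 and 6.76 and rose by 1.32. ZNF518A rose by 1.14, ZNF189 by 1.11 and ZNF622 by 1.06. The changes of ZNF324, ZNF827 and ZNF91 were 1.04, 1.03 and 1.01. The last 3 calls ended in all 4 alternatives, those of ZNF518A, ZNF189 and ZNF622 under scaling to the 75th percentile and in the authors' deposited values, and that of ZNF513 without background correction and with an offset of 50. Scaling to the 75th percentile alone gave 5 rises and 9 falls at day 1, and the authors' values, which also lack the background correction, 5 and 7. All genes turned the same way, from 856 rises and 743 falls to 727 and 1004 under the 75th percentile and 642 and 854 in the authors' values. The balance of rises over falls at day 1 thus depends on the scaling, in the members and in all genes.

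Each of these 11 genes was lower at day 3 than at day 1, with changes from -0.30 for ZNF513 to -3.11 for ZNF385A. Only those of ZNF385A and ZNF462 passed the rule. Since the genes were picked for a high day 1 array, a lower value on the next array is a description and supports nothing further.

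Among the falls of day 1, ZNF518B had the widest change of genes above background on both arrays. It encodes a partner of the histone methyltransferase G9a, as does its paralog ZNF518A. ZNF518B had levels of 9.08, 7.31 and 8.73, a fall of 1.77 log2 at day 1 and a rise of 1.42 from day 1 to day 3. ZNF518A had 8.67, 9.81 and 9.42, so the paralogs moved in opposite directions at day 1 and lay closer to their starting levels at day 3. The fall of ZNF518B held in all 4 alternatives. Falls, like rises, were picked by the day 1 array, so a return toward day 0 at day 3 is a description and supports nothing further.

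ZNF593, whose yeast homolog Bud20 travels with the large ribosomal subunit out of the nucleus, had levels of 9.03, 7.50 and 7.97. It fell by 1.53 log2 at day 1 and by 1.06 at day 3, and was the 1 member above background on both arrays that fell at day 3. The day 1 call held in all 4 alternatives. The day 3 call ended without background correction and with an offset of 50.

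ZNF521, a factor of blood stem cells that inhibits the B cell factor EBF1, was above background at day 0 and day 3 and not at day 1. Its deposited intensities were 150.0, 62.0 and 100.8, and it was at least 2.64-fold lower at day 1. EBF1, named after its values were seen, was above background at day 1 and day 3 and not at day 0. It had levels of 5.06, 6.90 and 6.14, and was at least 2.26-fold higher at day 1. A link between the changes of ZNF521 and EBF1 was not tested. ZNF69 was above background only at day 0, at an intensity of 150.8 beside 29.9 and 48.0, and was at least 2.65-fold lower at day 1 and at least 2.63-fold lower at day 3. It became a member through its day 0 array alone, so its falls, counted on both days, follow in part from that choice and support nothing further. A fall of 1.18 was seen for ZNF354A, of 1.12 for ZNF589, of 1.04 for ZNF326 and of 1.02 for ZNF664. These 6 calls ended without background correction and with an offset of 50, and that of ZNF326 also in the authors' values.

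**Figure D2:**
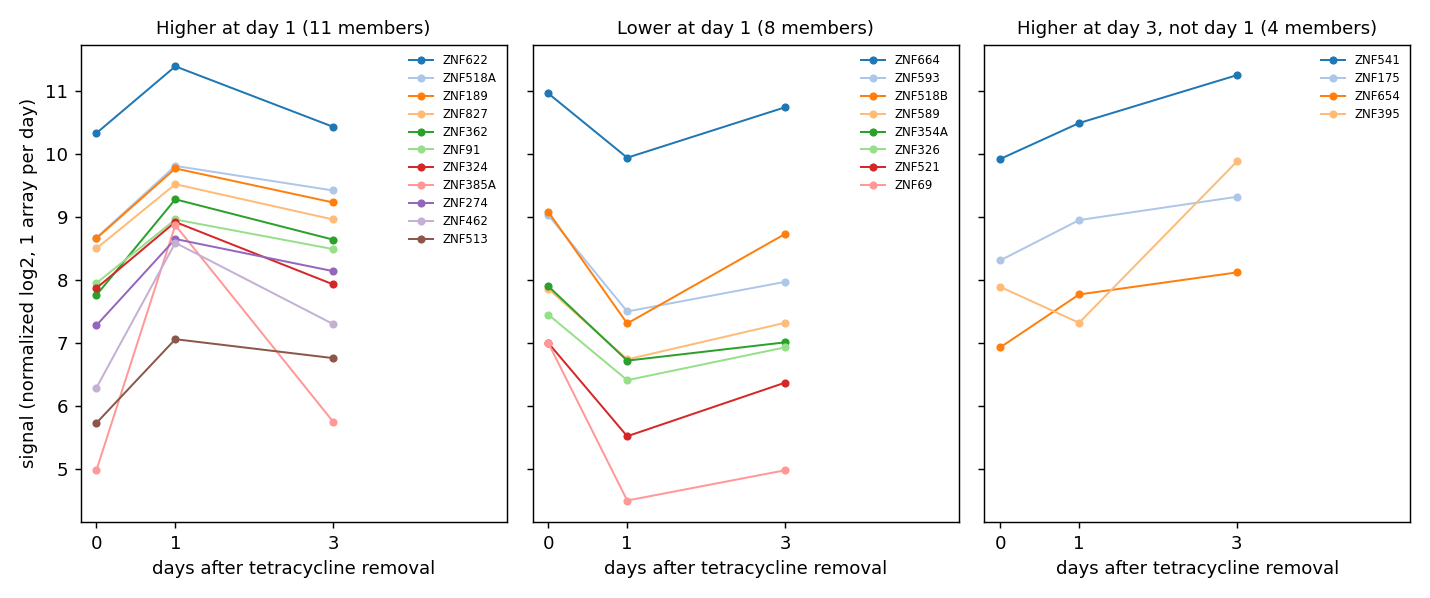
Levels (normalized log2 signal, 1 array per day, no replicate) of the members past the size rule, plotted against days after tetracycline removal. The left panel holds the 11 that rose at day 1, the middle one the 8 that fell, and the right one the 4 that rose at day 3 but not at day 1. ZNF385A goes from 4.98 to 8.87 and back to 5.75, and ZNF395 is highest at day 3.

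The rises of day 3 were led by ZNF395, a factor whose RNA is induced by low oxygen. It had levels of 7.89, 7.32 and 9.88. Its change was -0.58 at day 1, after which it rose by 1.98 log2 against day 0 and by 2.56 against day 1, the widest rise of a member at day 3 in both comparisons. It held in all 4 alternatives. ZNF541, known from germ cells in mice, had levels of 9.92, 10.49 and 11.25 and rose by 1.33 at day 3. ZNF654 had 6.93, 7.77 and 8.12 and rose by 1.19, and its second probe read 6.91, 7.53 and 8.01, a change of 1.09. Both calls held in all 4 alternatives.

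The rises of ZNF513 by 1.02 and ZNF175 by 1.01 at day 3 were at the threshold. ZNF175 ended in all 4 alternatives, and ZNF513 in all but scaling to the 75th percentile. The authors' values left 3 rises and 2 falls at day 3, and the correction-free setting 3 and 0. From day 1 to day 3, ZNF395, ZNF518B and ZNF84 rose and ZNF385A, ZNF462 and ZNF579 fell, 3 of 231 members each way or 1.30%, beside a background of 3.55% higher and 3.92% lower. ZNF84 at 1.03 and ZNF579 at -1.01 ended in all 4 alternatives.

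Members were also grouped by known role. The counts of each list are to be read against all genes, of which 9.20% rose and 7.99% fell at day 1. At day 3 these shares were 4.95% and 2.16%. Of 10 detected proteins of RNA, ribosomes and mitosis, 1 rose and 2 fell at day 1. ZNF622, the human counterpart of yeast Rei1, which acts on the large ribosomal subunit in the cytoplasm, had levels of 10.33, 11.39 and 10.43. ZNF593, which acts on the same particle earlier, moved the other way. ZNF326, a subunit of a complex that couples splicing to transcription, stood at 7.45, 6.41 and 6.93, and its 2 other probes were above background on no array. ZNF207, a spindle protein that binds BUB3, changed by -0.23 at day 1, and by 0.17 on its second probe.

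Of 6 detected partners of chromatin complexes, 2 rose at day 1 and 0 fell, beside 9.20% and 7.99% of all genes. The median change of the 6 was 0.61. The 2 that rose were ZNF274 and ZNF827, which brings the NuRD complex to telomeres and had levels of 8.50, 9.52 and 8.96. The call of ZNF827 ended in all 4 alternatives. ZNF410, an activator of the NuRD gene CHD4, changed by 0.69, and ZNF217, a partner of the CoREST repressor, by 0.52 and, at day 3, by 0.77. ZNF335 and ZNF644 changed by 0.17 and -0.27 at day 1. Promoter factors gave 0 calls among 7 detected, with changes at day 1 from -0.48 for ZNF281 to 0.88 for ZNF384, and ZNF148 and ZNF143 at 0.43 and 0.19.

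The platform had 7 genes listed as retroelement or imprint binders, and 3 were detected. ZNF91, which represses SVA elements, had levels of 7.95, 8.96 and 8.49 and rose at day 1 at the threshold. ZNF93, which represses LINE-1 elements, changed by 0.30 and ZNF649 by -0.07. Among blood cell genes 4 of 7 were detected, and ZNF521 and ZNF589 fell at day 1. ZNF683 (Hobit), a factor of resident lymphocytes, changed by 0.09. ZNF467 was above background only at day 1 and did not pass by its bound. In the growth list ZNF385A rose at day 1 and ZNF395 at day 3, while ZNF668 changed by -0.10 and -0.65. All these lists were short, and their counts are descriptions.

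**Figure D3:**
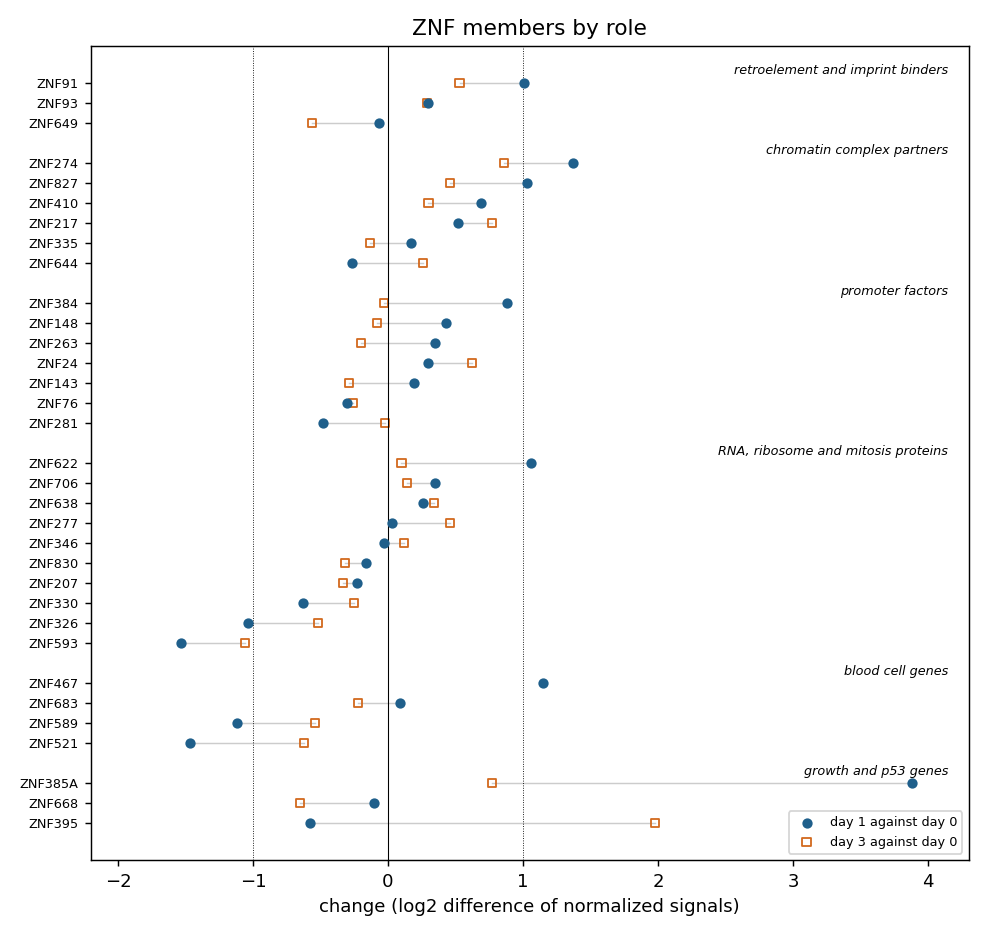
Change of each detected member of the 6 role lists, as a log2 difference of normalized signals, at day 1 (filled circles) and day 3 (open squares) against day 0, with 1 array per day. Dotted lines mark 2-fold. ZNF385A is drawn at its raw difference of 3.88 at day 1, although it was not above background at day 0. Its rise is known only as at least 8.83-fold with the processing used here. ZNF395 at 1.98 is the widest at day 3. All other points are raw differences too. ZNF521 at -1.47 was not above background at day 1. ZNF467 lies past the dotted line at 1.15 but did not pass by its bound. It has no square because it was above background at neither day 0 nor day 3.

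The KRAB corepressor genes, which are no members, were set beside them. TRIM28 had levels of 8.54, 8.54 and 8.10, and SETDB1 6.94, 7.55 and 7.05, so neither passed the rule on either day. Of 16 detected corepressor and heterochromatin genes 1, DAXX, rose at day 1 and 0 fell, and 0 of 15 passed at day 3. DAXX, a chaperone of histone H3.3, had 7.30, 10.10 and 7.36, a change of 2.81 at day 1 that was gone at day 3. CHD4 fell by 1.19 from day 1 to day 3. Other C2H2 families held calls in both directions. All counts of these families and of the corepressor genes are to be read against the 9.20% and 7.99% of all genes at day 1. At day 3 the shares of all genes were 4.95% and 2.16%. ZBTB genes had 2 rises among 25, ZBTB32 and ZBTB34, and ZSCAN and ZKSCAN genes 0 calls among 8 and 5. PRDM1, a factor of plasma cell differentiation, rose by 1.91 at day 1 and 2.71 at day 3, and 2 of 4 PRDM genes rose at day 1. EGR1, an immediate early gene, rose by 1.45 and 2.07. KLF2, a factor of lymphocyte quiescence, fell by 1.69 at day 1, and was the 1 call among 9 KLF genes. IKZF5 fell by 1.36, the 1 call among 3 IKZF genes at day 1. The RING finger genes named RNF, with another kind of zinc fold, had 6 rises among 50 at day 1, a share near the background, and 0 falls, and 0 of 52 passed at day 3. Of 5 measured ZFYVE genes, which bind a membrane lipid through their zinc fold, 3 rose at day 1, led by ZFYVE1 at 2.52. Rises at day 1 were also seen in 3 of 15 ZDHHC, 2 of 9 ZFP, 1 of 9 ZC3H and 1 of 6 ZMYM genes. Falls at day 1 were seen in 1 of 4 ZMYND and 1 of 7 ZCCHC genes. At day 3, 2 of 5 ZFYVE and 2 of 9 ZFP genes rose, and 1 of 16 ZDHHC and 1 of 4 ZMYND genes fell. The ZFP genes that rose were ZFP36 and ZFP36L1 on both days.

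Probe brightness differs between probes, so it ranks no gene against another. The brightest members were ZNF14 at 13.68, 13.74 and 13.44, ZNF486 at 13.27, 13.42 and 13.51, ZNF428 at 12.13, 11.44 and 11.57, ZNF207 and ZNF786. None of these 5 passed the rule on any day. Probes of zinc finger genes can also read their close relatives, and this was not tested.

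A further 41 probes existed for 27 members, and 8 of them were above background on at least 1 array. Second probes detected on all arrays were available for 7 members. For ZNF174 the day 1 changes were -0.62 and -0.83, for ZNF451 -0.50 and -0.46, and for ZNF654 0.84 and 0.62, all of them under the rule and apart by less than the probe error. For ZNF789 they were -0.52 and 0.03, and for ZNF644 -0.27 and 0.18. The probes of ZNF280D disagreed most, with changes of 0.21 and -0.75 at day 3, and of -0.33 and -1 at day 1. At day 3 the probes of ZNF451, at -0.25 and 0.24, and of ZNF789, at -0.06 and 0.49, also differed in sign. Those of the others did not. Outside ZNF654, no member past the rule had a second probe above background.

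The members include 98 genes of chromosome 19, by RefSeq annotation of GRCh38.p14, out of 237 ZNF genes of that chromosome with a probe, or 41.4%. On other chromosomes 136 of 250, or 54.4%, were detected. The chromosome 19 members changed by a median of 0.09 log2 at day 1 and 0.06 at day 3, and the others by -0.09 and -0.08. At day 1, 3 of 92 rose and 1 fell on chromosome 19, and 8 of 134 rose and 7 fell elsewhere, beside 9.20% and 7.99% of all genes. Of 514 genes of chromosome 19 outside the ZNF family, 51 rose and 58 fell at day 1, and their median changes were -0.14 at day 1 and -0.15 at day 3. In the authors' values the chromosome 19 members lay at 0.01 and 0.00 and the others at -0.10 and -0.12. The gap of 0.18 at day 1 thus became 0.12, and that of 0.14 at day 3 became 0.12. Under scaling to the 75th percentile the gaps were 0.14 and 0.16. The chromosome 19 median lay above that of the others in every setting tried, but chromosome 19 members have no settled direction of their own. The gap between the medians was not tested.

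Members that lie next to each other were compared as well. RefSeq gene order gave 27 pairs of adjacent protein-coding genes that were both members above background on all arrays. At day 1, 12 of 27 pairs had changes of one sign, with a correlation of -0.01 across pairs, and at day 3, 12 of 27 with -0.08. The other 3545 adjacent pairs of genes detected throughout gave 54.0% and 54.5% of one sign and correlations of 0.11 and 0.12. All pairs share the same arrays, and some genes stand in more than 1 pair. ZNF581 and ZNF580 changed together at day 1, by 0.75 and 0.74. ZNF274 rose by 1.37 beside ZNF544 at 0.10, and ZNF324 rose by 1.04 beside ZNF446 at -0.22.

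**Figure D4:**
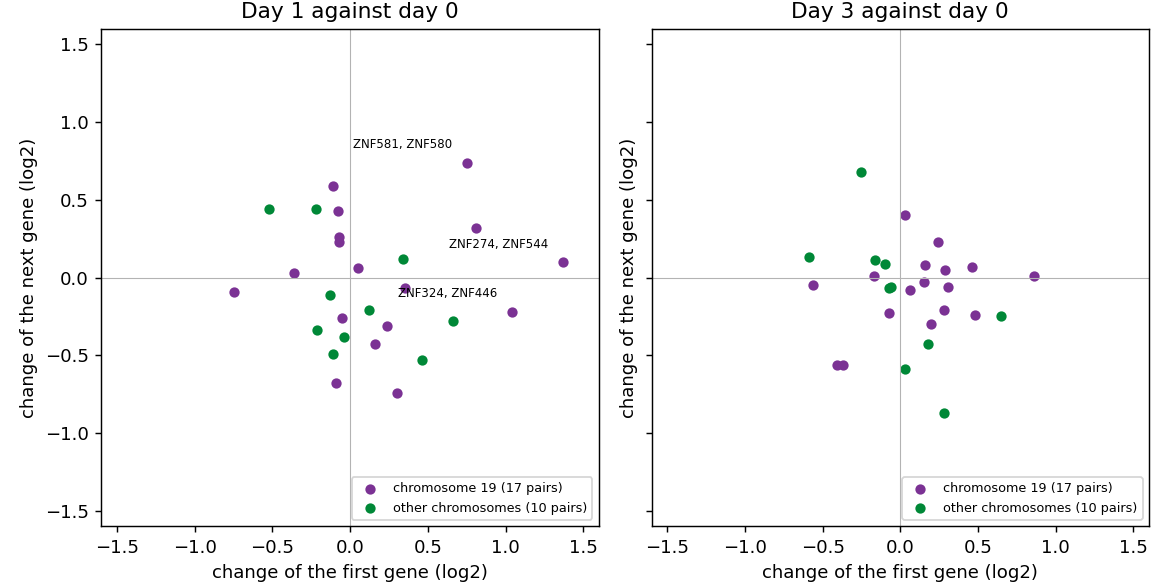
Change of a member (horizontal) against that of the next protein-coding gene along the chromosome, also a member (vertical), in log2, for 27 pairs at day 1 (left) and day 3 (right) against day 0. Points are coloured by chromosome 19 or another chromosome. The points form no diagonal, with a correlation of -0.01 at day 1 and -0.08 at day 3.

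The promoters of the members were read from RefSeq at GRCh38.p14, from 250 bases before to 50 after the most upstream start listed, and 197 of the 234 members matched a protein-coding entry. Those below belong to the paralogs that moved in opposite directions and to 2 members that rose at day 1, the SETDB1 recruiter and the ribosome factor. Only the 250 bases before the start are printed, 5' to 3' on the strand of the gene. Capitals mark a match to 1 of 5 motifs searched on both strands: GAGGAAGT, a PU.1-like core, CCGGAAG, a core shared by many other ETS factors, ACTACAATT, a core of ZNF143, GCGCATGCG, an NRF1-like core, and TATAAA. The first pair share the letters GGAAG.
ZNF518A, chr10:96129465-96129714, plus strand: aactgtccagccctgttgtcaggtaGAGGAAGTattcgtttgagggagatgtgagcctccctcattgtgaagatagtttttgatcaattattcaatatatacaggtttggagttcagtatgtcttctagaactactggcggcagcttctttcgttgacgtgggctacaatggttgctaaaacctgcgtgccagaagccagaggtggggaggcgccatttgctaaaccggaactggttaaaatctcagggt
ZNF518B, chr4:10457427-10457676, minus strand: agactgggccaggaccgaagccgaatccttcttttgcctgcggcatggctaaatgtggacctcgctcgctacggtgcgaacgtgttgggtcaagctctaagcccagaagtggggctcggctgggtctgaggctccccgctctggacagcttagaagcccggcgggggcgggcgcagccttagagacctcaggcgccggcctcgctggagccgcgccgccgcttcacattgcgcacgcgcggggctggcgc
ZNF274, chr19:58182811-58183060, plus strand: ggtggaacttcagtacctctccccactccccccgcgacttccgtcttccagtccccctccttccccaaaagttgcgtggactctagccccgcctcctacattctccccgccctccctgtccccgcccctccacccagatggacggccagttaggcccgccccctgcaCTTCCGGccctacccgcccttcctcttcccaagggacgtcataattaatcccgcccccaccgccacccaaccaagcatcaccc
ZNF622, chr5:16465801-16466050, minus strand: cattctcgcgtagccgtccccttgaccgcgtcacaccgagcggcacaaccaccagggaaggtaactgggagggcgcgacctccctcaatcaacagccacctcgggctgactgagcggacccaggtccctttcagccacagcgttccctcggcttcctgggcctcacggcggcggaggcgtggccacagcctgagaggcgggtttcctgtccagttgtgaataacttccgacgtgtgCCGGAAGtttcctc

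ZNF518A has the PU.1-like letters at 225 bases before its most upstream start of 4 listed. The window of ZNF518B holds none of the 5 motifs. The rise of ZNF518A ended under scaling to the 75th percentile and in the authors' values, and only 2 members measured at day 1 have these letters. Whether the letters bear on either change was not tested. ZNF274 and ZNF622 each show CCGGAAG or its reverse complement, and ZNF274 a second match 9 bases after the start, outside the printed stretch. The PU.1-like letters were in 3 of 197 member promoters, or 1.52%, beside 2.50% of 15842 promoters of protein-coding genes. CCGGAAG was in 71, or 36.0%, beside 14.2% of all promoters and 20.8% of those of genes above background. ZNF genes that were above background on no array had it in 41.1% of 202, so the motif was as frequent in ZNF genes that were not detected. The ZNF143 core was in 6 member promoters, 3.05%, beside 0.495% of the ZNF genes on no array and 0.461% of all, and TATAAA in 1.52% beside 9.75%.

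Members with CCGGAAG changed by a median of 0.08 log2 at day 1 over 67 measured, and those without by -0.12 over 124. At day 3 the medians were 0.12 and -0.06. Such medians are not given for all genes, so the gap is not shown to be particular to the members, and it was not tested. Of the 8 risen members with a promoter entry 5 had the match, and of the 7 fallen members 1, ZNF593, beside 36.0% of all member promoters. These are matches of letters in a window, not sites of binding.

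**Figure D5:**
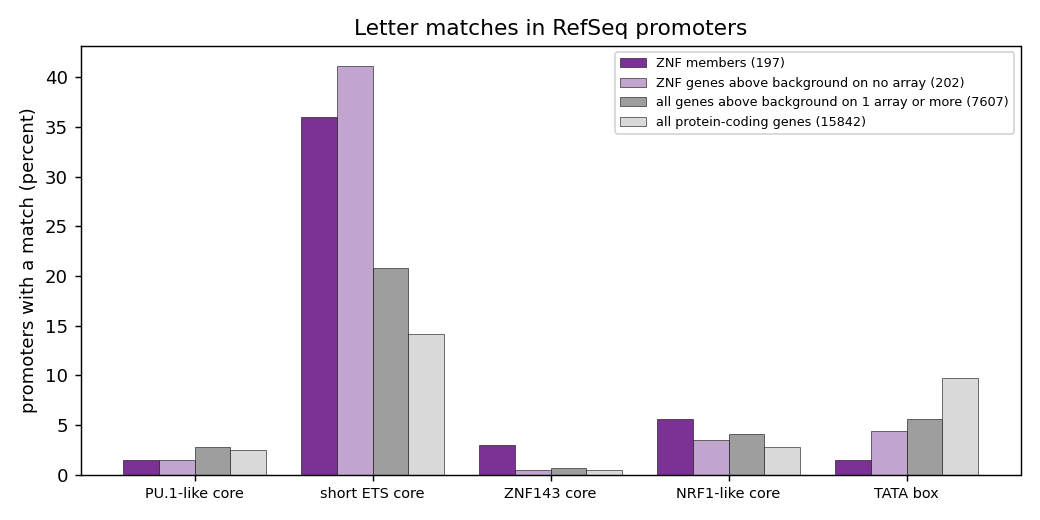
Percent of promoters (250 bases before to 50 after the start) that hold each of 5 motifs on either strand, for 197 ZNF members, 202 ZNF genes above background on no array, 7607 genes above background and 15842 protein-coding genes. The CCGGAAG bar of the members stands at 36.0% and that of all protein-coding genes at 14.2%, and the PU.1-like bars lie at 1.52% and 2.50%.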

How the data were processed

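Total RNA of 3 samples was amplified, labelled with biotin and read on Illumina bead arrays with BeadStudio 3.3.7, per the labels' protocols and the submitters' processing notes. The authors deposited 1 non-normalized intensity and 1 detection p-value for each probe and array, per the file headers, and a table of log2 values. Set against the intensities, those deposited log2 values are the logged intensity after subtraction of the array's 75th percentile and then of the probe's median across arrays, to within 2.48e-06. The authors' processing is otherwise not given in the sources used here.

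Here the intensities were corrected with limma's normexp model (limma 3.58.1 in R 4.3.3), which took the background from the detection p-values, with an offset of 16. The arrays were then quantile normalized and logged, which would hide a common shift of most genes. Counts and medians came from Python 3.11.15 (numpy 2.4.6, pandas 2.3.3), and figures from matplotlib 3.10.9. The rules were run on simulated arrays, in which only bright probes were changed, and by more than 2-fold. The simulation therefore does not show how well changes near 2-fold or in dim probes are called.

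Symbols came from the platform's annotation, and 231 of 234 members matched a RefSeq gene ID of GRCh38.p14. In RefSeq, ZNF539 is now ZNF254 and ZNF409 is now ZFHX2, and 5 members are pseudogenes. No protein table was used here, so a split by KRAB domain was not made. The 3 comparisons were each pair of days. Named were the members furthest past the size rule, the brightest, and the called or brightest members of each role list. The members, lists and motifs were chosen with earlier results of these data known, and the ZNF143 core was shortened after its matches had been counted. The number of arrays limits the precision.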

Additional observations from a re-analysis of the deposited data

How the results depend on the processing

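No paired analysis was possible because each day had 1 array. The counts of rises and falls among ZNF members depend on the processing more than the medians do. Without background correction 7 rose and 2 fell at day 1 and 3 rose and 0 fell at day 3, and an offset of 50 gave the same 7, 2, 3 and 0. All genes dropped as well without the correction, from 856 rises and 743 falls to 696 and 514 at day 1 and from 455 and 198 to 342 and 98 at day 3. Scaling to the 75th percentile gave 5 rises at day 1, and the authors' values 5 at day 1 and 3 at day 3. The median at day 3 was then -0.074 and -0.064, and these settings shifted the median of all genes above background on both arrays by -0.12 and -0.10. At a detection p-value under 0.05, 6 fell from day 1 to day 3. Members above background on all arrays gave 1 fall at day 3. With no filter 17 rose at day 1 and 7 fell from day 1 to day 3. A 1.5-fold rule gave 28 rises and 31 falls at day 1, 19 and 18 at day 3, and 14 and 21 from day 1 to day 3. The cause of these moves was not tested, except that wider filters and rules take in more genes. The mean of all probes above background and updated symbols left each of the 6 counts as it was. No called change of a named gene turned its sign in the 4 alternatives of background correction and scaling, and 4 of 11 rises and 2 of 8 falls at day 1 and 3 of 6 rises and 0 of 2 falls at day 3 passed in all 4. A split by KRAB domain, under each setting, was not run. A median was taken as moved when it shifted by more than 2 probe errors divided by the square root of the number of members.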
